A study of Homo sapiens with 9 samples.

Results

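The immunoproteasome genes PSMB8, PSMB9, PSMB10, PSME1 and PSME2 were followed in HMC3 cells, an immortalized human microglia line, under a senescence-inducing cocktail at 2 strengths. The 5 genes were chosen by name out of 61544 listed, and each of them passed the filter on low counts that left 14727 genes for testing. Libraries of polyadenylated RNA came from cells kept for 6 days in DMSO (VEH, 3 libraries), in the lower dose (SLO ½, 3 libraries) or in the full dose (SLO, 3 libraries). SLO held 10 µM SBI-0206965, which inhibits the autophagy kinase ULK1, 1 µM O-151, which inhibits the DNA glycosylase OGG1, and 1 µM Lopinavir, which blocks maturation of Lamin A. SLO ½ held 5 µM SBI-0206965, 0.5 µM O-151 and 0.5 µM Lopinavir. The cocktail was given as a whole in these libraries, so the parts played by its compounds cannot be told apart, and no source used here says whether the 3 libraries of a group came from separate cultures.

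The proteasome is a barrel-shaped protease, the 20S core, which cuts ubiquitin-tagged proteins that a cap, the 19S regulator, unfolds and feeds into it. Cells exposed to interferon assemble a variant, the immunoproteasome, in which the inducible subunits encoded by PSMB8, PSMB9 and PSMB10 take the places of the constitutive catalytic subunits encoded by PSMB5, PSMB6 and PSMB7. PSME1 and PSME2 encode the alpha and beta chains of PA28, a ring that can cap the core in place of the 19S regulator and helps release peptides. Peptides cut in this way are carried by the TAP transporter onto class I MHC molecules, and microglia are known to raise this set of genes when stimulated by interferon.

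Genes of this set are known to carry short interferon-response motifs near their start sites, so the letters of 2 such motifs were looked up. These were GAAANNGAA, the core of the interferon-stimulated response element, and TTCNNNGAA, the interferon gamma activated site, each on both strands. RefSeq windows (GRCh38.p14) from 250 bases before to 50 bases after the start were at hand for 6 of the 8 genes (the members and their constitutive counterparts), and not for PSMB6 and PSMB7. The first motif was found in windows of PSMB8, PSMB10, PSME1 and PSME2. The second was found in a window of PSMB8 and in a window of the constitutive gene PSMB5. Each match in a member, and 1 in TAP1, is given as 30 bases in the direction of the gene, 5′ to 3′. The matching letters are in capitals, to let them be read in each gene.
PSMB10, chr16:67936852-67936881, minus strand, match 21 to 13 bases before the start: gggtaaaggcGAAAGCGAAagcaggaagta
PSME2, chr14:24146619-24146648, minus strand, match 28 to 20 bases before the start: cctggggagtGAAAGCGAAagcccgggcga
PSME1, chr14:24136190-24136219, plus strand, match 7 to 15 bases after the start: ccctaccgctTTCGCTTTCccttcgcggtg
PSMB8, chr6:32844031-32844060, minus strand, match across the downstream start: atctgtggctTTCGCTTTCacttcctcctc
PSMB8, chr6:32844093-32844122, minus strand, match 65 to 57 bases before the downstream start: aactgtccttTTCTCGGAAaaggcaggggg
TAP1, chr6:32853812-32853841, minus strand, match 127 to 119 bases before its first start: cgctttcgatTTCGCTTTCccctaaatggc

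The match in PSMB10 and in PSME2 was the same run of letters, GAAAGCGAA, and PSME1 and PSMB8 held it on the opposite strand, TTCGCTTTC. PSMB8 has 2 annotated starts, and both matches belonged to the window of the downstream start at 32844047, while the window at 32844679 held neither. PSMB9 held neither motif in its window. It starts 488 bases from TAP1, the transporter gene, in the opposite direction, and TAP1 is shown because 2 overlapping matches in its window lie 355 to 369 bases before the start of PSMB9. Of the constitutive gene PSMB5, the first window held neither motif and the second held TTCNNNGAA at 2 places. Among all 35116 windows, GAAANNGAA occurred in 6.88% before the start and in 8.11% of whole windows, and TTCNNNGAA in 6.57% and 7.66%. A match shows only that these letters are present and says nothing of a factor binding there.

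Reads on genes numbered 14834295 to 19674841 per library. Replicates varied by a biological coefficient of variation of 3.76%, and p-values measure this spread, which may be technical. In every comparison a large share of all genes passed the test, so a count of members is read beside that share. Fold changes are log2 ratios of counts scaled by library (TMM), with p-values from edgeR's quasi-likelihood test adjusted by the Benjamini-Hochberg method over the 14727 genes and called below 0.05. Levels are given in TPM, which scales for gene length and so lets genes be set side by side. They come from the same counts and add no separate measurement.

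Of the 5 members, PSMB8, PSMB9, PSMB10 and PSME2 rose in SLO ½ against VEH, by 0.54 to 1.45 on the log2 scale, and PSME1 was not called. In SLO, PSMB9 and PSMB10 were above VEH, PSME1 was below it, and PSMB8 and PSME2 were not called. From SLO ½ to SLO, 4 members fell and none rose. Thus in SLO ½ 4 members were called higher and 0 lower, where 26.7% and 25.3% of all tested genes were. In SLO against VEH, 2 were called higher and 1 lower, where 32.9% and 32.1% of all genes were, and that share of members is near the background. In SLO against SLO ½, 0 were called higher and 4 lower, where 20.8% and 20.3% of all genes were. The comparisons against VEH share the same 3 VEH libraries. The rise to SLO ½ and the fall from it share the same 3 SLO ½ libraries, so these 2 results are not independent. In a bulk sample, fewer cells making an RNA and less of it per cell cannot be told apart.

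**Figure D1:**
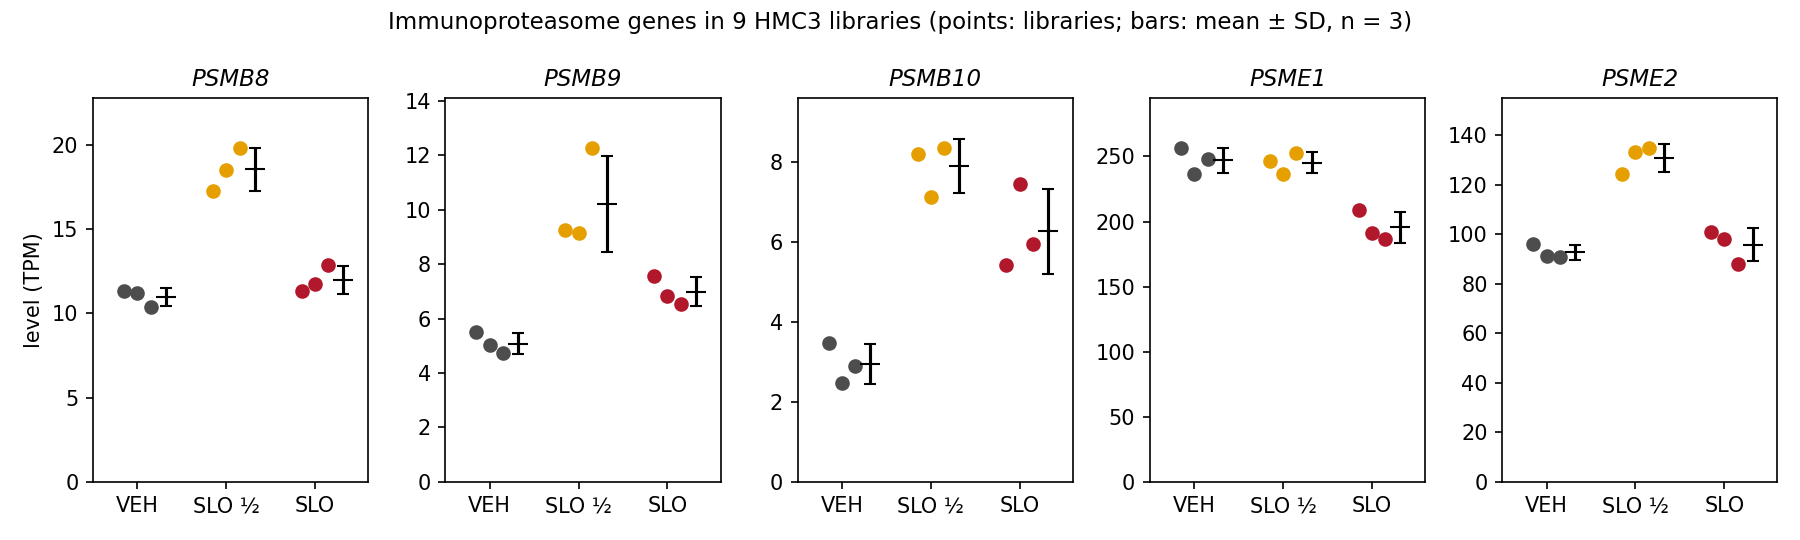
Level of each immunoproteasome gene in TPM (vertical axes, each starting at 0) in the 3 VEH, 3 SLO ½ and 3 SLO libraries; points are libraries and bars are mean ± SD (n = 3). The SLO ½ points lie above the VEH points for PSMB8, PSMB9, PSMB10 and PSME2, and the SLO points of PSME1 lie below both other groups.

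The inducible catalytic subunits were the least abundant members. PSMB8 (ENSG00000204264.12, chr6:32840717-32844679) encodes the subunit with chymotrypsin-like activity, which takes the place of the PSMB5 product. It stood at 11.3, 11.2 and 10.3 TPM in VEH, at 17.3, 18.5 and 19.8 TPM in SLO ½, and at 11.3, 11.7 and 12.9 TPM in SLO. All SLO ½ libraries were above all others, while SLO and VEH met at 11.3 TPM. In SLO ½ the rise over VEH was 0.80 on the log2 scale (SE 0.098, edgeR adjusted p = 6.7e-08), a fold of 1.74 with a 95% interval of 1.52 to 2.00. In SLO the log2 difference from VEH was 0.14, with a 95% interval of -0.08 to 0.35 (adjusted p = 0.273). From SLO ½ to SLO, PSMB8 fell by 0.67 on the log2 scale (SE 0.097, adjusted p = 2.1e-06).

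PSMB9 (ENSG00000240065.8, chr6:32844136-32859851), the neighbour of PSMB8 in the class II region of the MHC, encodes the subunit that takes the place of the PSMB6 product. Its levels were 5.51, 5.01 and 4.73 TPM in VEH, 9.24, 9.15 and 12.3 TPM in SLO ½, and 7.56, 6.84 and 6.52 TPM in SLO. The 3 groups did not overlap, and SLO lay between VEH and SLO ½. The rise over VEH was 1.05 in SLO ½ (SE 0.144, adjusted p = 5.09e-07) and 0.47 in SLO (SE 0.157, adjusted p = 0.00994), both on the log2 scale. The fall from SLO ½ to SLO was called as well, with a log2 change of -0.58 (SE 0.136, adjusted p = 0.000993). The third SLO ½ library was the highest of the 9 for this gene, and without it the rise of SLO ½ over VEH was still called.

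PSMB10 (ENSG00000205220.12, chr16:67934506-67936864) encodes the subunit with trypsin-like activity, which takes the place of the PSMB7 product. Its counts were low, with 19, 13 and 19 reads in VEH, 51, 45 and 49 in SLO ½, and 31, 44 and 31 in SLO. Its levels were 3.46, 2.48 and 2.88 TPM in VEH, 8.20, 7.10 and 8.34 TPM in SLO ½, and 5.41, 7.45 and 5.93 TPM in SLO. Every treated library was above every VEH library, and the second SLO library overlapped the SLO ½ group. PSMB10 had the largest fold changes of the 5 members, with log2 rises of 1.45 in SLO ½ (SE 0.226, adjusted p = 3.73e-06) and 1.10 in SLO (SE 0.241, adjusted p = 0.000231). Between the doses its log2 difference was -0.36, with a 95% interval of -0.75 to 0.04, and was not called (adjusted p = 0.144).

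The PA28 genes were far more abundant than the inducible subunits. PSME1 (ENSG00000092010.15, chr14:24136163-24138967), the alpha chain, stood at 256, 237 and 248 TPM in VEH, at 246, 237 and 253 TPM in SLO ½, and at 209, 192 and 186 TPM in SLO. VEH and SLO ½ overlapped throughout, and all SLO libraries were below both. The log2 difference of SLO ½ from VEH was 0.03, with a 95% interval of -0.07 to 0.13 (adjusted p = 0.614), which leaves out a change as large as that of PSME2. In SLO, PSME1 fell by 0.33 on the log2 scale against VEH (SE 0.049, adjusted p = 9.63e-07), and against SLO ½ by 0.36 (SE 0.048, adjusted p = 6.75e-07).

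PSME2 (ENSG00000100911.16, chr14:24143362-24147570), the beta chain, lies close to PSME1 on the opposite strand. It stood at 96.2, 91.3 and 90.9 TPM in VEH, at 125, 133 and 135 TPM in SLO ½, and at 101, 98.4 and 88.2 TPM in SLO. SLO ½ stood above the other groups, while SLO libraries lay on both sides of the VEH range. PSME2 rose by 0.54 in SLO ½ against VEH (SE 0.051, adjusted p = 5.69e-10) and fell by 0.48 from SLO ½ to SLO (SE 0.051, adjusted p = 8.64e-09). Its log2 difference between SLO and VEH was 0.06, with a 95% interval of -0.05 to 0.16 (adjusted p = 0.36). That difference passed the threshold under 1 other scaling, by library size alone (0.13, adjusted p = 0.0351).

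**Figure D2:**
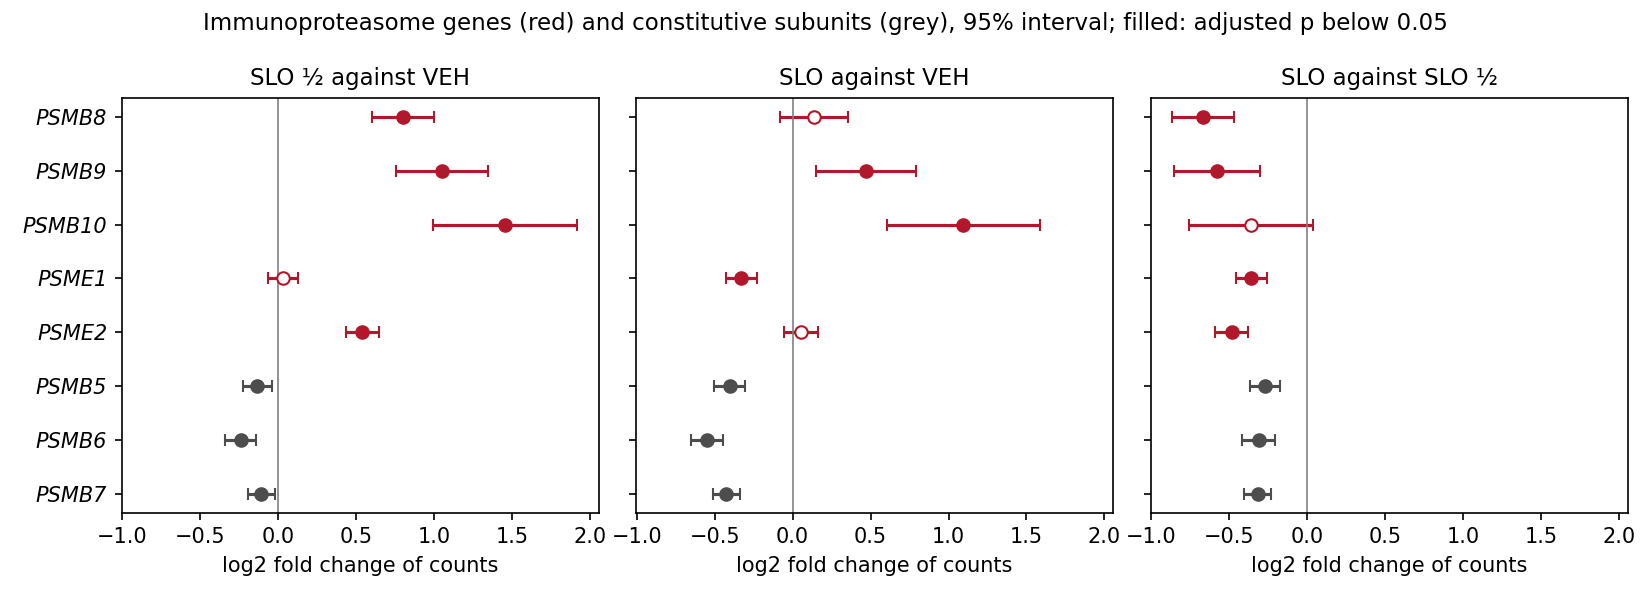
Log2 fold change of counts (horizontal axis) with its 95% interval for the 5 immunoproteasome genes (red) and the 3 constitutive catalytic subunits (grey) in the 3 comparisons; filled points passed an adjusted p of 0.05. In SLO ½ against VEH the red points reach 1.45 and the grey points lie at -0.11 to -0.24.

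Members were also sorted by whether the scaled counts (CPM, per 1000000 reads) of the groups overlapped. In SLO ½, 4 members were above VEH without overlap and 0 below, where 30.0% and 28.4% of all tested genes were. In SLO, 2 were above VEH and 1 below, where 33.7% and 33.0% of genes were. SLO lay above SLO ½ for 0 members and below it for 4, where 25.4% and 25.6% of genes did.

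In order of level, PSME1 came first in all groups, followed by PSME2, PSMB8, PSMB9 and PSMB10. The level of PSMB10 is uncertain, because reads shared with an overlapping gene of the same strand are set aside. Mean levels in VEH were 247 ± 9.94 TPM for PSME1 and 92.8 ± 2.95 TPM for PSME2 (SD, n = 3). The inducible subunits had means of 10.97 ± 0.539 (PSMB8), 5.08 ± 0.394 (PSMB9) and 2.94 ± 0.496 TPM (PSMB10). In SLO ½ the means were 245 ± 8.16 (PSME1), 131 ± 5.57 (PSME2), 18.5 ± 1.26 (PSMB8), 10.2 ± 1.77 (PSMB9) and 7.88 ± 0.675 TPM (PSMB10). In SLO they were 196 ± 12.0, 95.8 ± 6.70, 12.0 ± 0.804, 6.98 ± 0.533 and 6.26 ± 1.06 TPM in the same order. Neighbours in this order did not overlap between libraries of a group, except PSMB9 and PSMB10 in SLO, whose ranges crossed. The summed level of the 5 genes, most of it PSME1 and PSME2, was 347 to 373 TPM in VEH libraries. Under SLO ½ it was 405 to 428 TPM and under SLO 300 to 334 TPM. The sum was thus higher in SLO ½ and lower in SLO than in VEH, without overlap, although PSMB9 and PSMB10 were above VEH there.

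The constitutive counterparts were lower in both treated groups. PSMB5, PSMB6 and PSMB7, the standard catalytic subunits, were each called lower in all 3 comparisons. Against VEH their log2 changes in SLO ½ were -0.13, -0.24 and -0.11, and in SLO -0.40, -0.55 and -0.42. From SLO ½ to SLO they fell by a further 0.27, 0.31 and 0.32. The small falls in SLO ½ depended on the setting, since 1 of the 3 was called with library size as the only scaling and 1 without SLO ½ replicate 1 or 3, while those in SLO were called under all alternatives run.

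The catalytic pairs were compared within each library as the inducible share of the pair's TPM, a quantity that does not depend on how libraries are scaled. PSMB8 made up 3.92% ± 0.242 (SD, n = 3) of PSMB8 and PSMB5 together in VEH, 7.23% ± 0.497 under SLO ½ and 5.61% ± 0.567 under SLO. PSMB9 made up 1.91% ± 0.227 of PSMB9 and PSMB6 in VEH, 4.50% ± 0.654 under SLO ½ and 3.75% ± 0.157 under SLO. PSMB10 made up 0.752% ± 0.116 of PSMB10 and PSMB7 in VEH, 2.20% ± 0.201 under SLO ½ and 2.14% ± 0.413 under SLO. The size of the PSMB10 share is uncertain, because 39.4% of its annotated exon bases also lie on another gene of the same strand. In both treated groups every library lay above every VEH library for all 3 pairs, so that for PSMB8, whose own level in SLO met that of VEH, the share was still higher in SLO. The constitutive RNA was the bulk of every pair in every library.

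Ratios of inducible to constitutive TPM were 1.91, 2.42 and 2.99 times those of VEH in SLO ½ for the PSMB8, PSMB9 and PSMB10 pairs, and 1.45, 2.02 and 2.87 times in SLO. An exact two-sided permutation test on the log2 ratios gave p = 0.1 in each case, the smallest that 3 against 3 libraries allow, and 0.12 after adjustment over 12 tests, so these ratios could not pass the threshold. From SLO ½ to SLO the PSMB8 and PSMB9 ratios were lower without overlap (0.761 and 0.834 times), with the same exact p. The PSMB10 ratio was 0.961 times that of SLO ½, with overlapping libraries (exact permutation p = 0.8). Within PA28, the ratio of PSME1 to PSME2 was 2.66 ± 0.0669 in VEH, 1.87 ± 0.101 under SLO ½ and 2.04 ± 0.0861 under SLO. Both treated groups were below VEH in every library (exact permutation p = 0.1), and the doses overlapped (exact permutation p = 0.2).

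**Figure D3:**
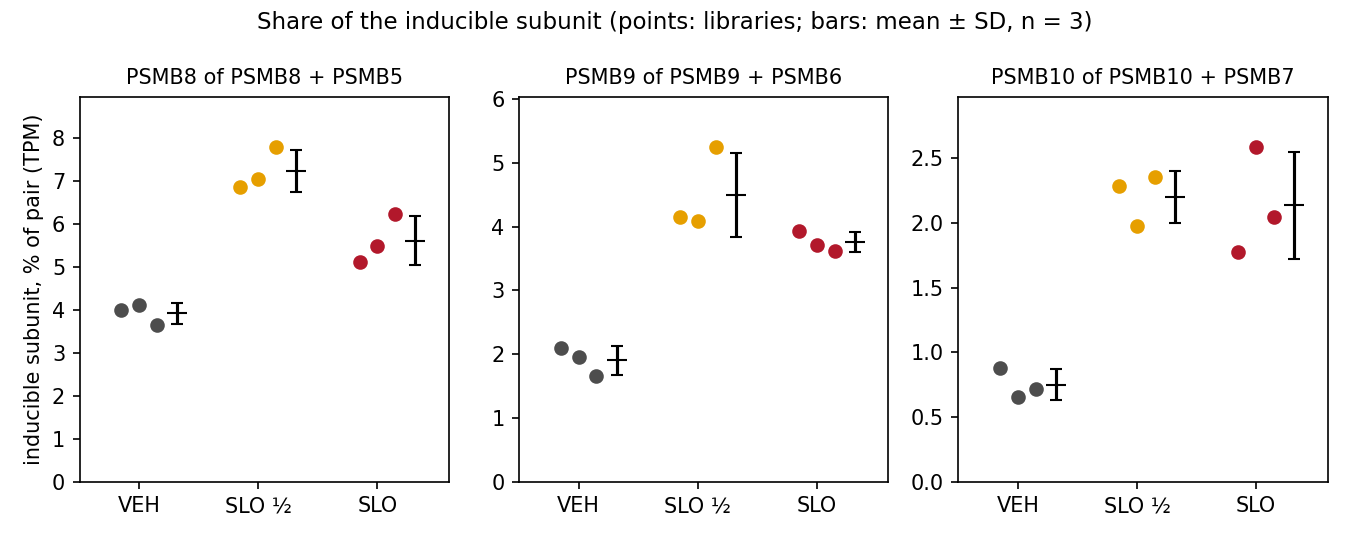
Share of the inducible subunit in the TPM of its catalytic pair (vertical axes in percent, each starting at 0) in the 9 libraries; points are libraries and bars are mean ± SD (n = 3). All SLO ½ and SLO points lie above all VEH points in each pair, and the PSMB10 pair reaches 2.20% in SLO ½ and 2.14% in SLO.

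The rest of the proteasome was read beside the share of all tested genes called lower, 25.3% in SLO ½ and 32.1% in SLO. Of the other 11 subunits of the 20S core, 1 was called higher and 2 lower in SLO ½, and 0 higher and 8 lower in SLO, with median log2 changes of -0.07 and -0.28. The 2 of 11 lower in SLO ½ are not above the share among all genes. PSMA7, an alpha-ring subunit, was the 1 called higher in SLO ½ (0.11), and it was below VEH in SLO (-0.14). Under 5 of 12 alternatives no subunit of this list was called higher in SLO ½. Of the 19 subunits of the 19S regulator, 1 was called higher and 10 lower in SLO ½, and 0 higher and 18 lower in SLO, with medians of -0.12 and -0.38. PSMC3, an ATPase of the cap, fell by 0.23 in SLO ½ and by 0.60 in SLO. The median over all tested genes was 0.02 in SLO ½ and 0.01 in SLO.

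The 5 assembly factors of the core include POMP, the chaperone that helps both kinds of core mature. POMP had a log2 difference of 0.05 in SLO ½ (adjusted p = 0.385) and fell by 0.22 in SLO, and of the list 0 rose and 1 fell in SLO ½, no more than the share among all genes, and 0 rose and 3 fell in SLO. PSME3, PSME4 and PSMF1 encode other regulators of the core, and PSME3 is the nearest relative of the PA28 genes. In SLO ½, PSME4 fell by 0.23 and PSME3 (0.00) and PSMF1 (-0.10) were not called, and in SLO all 3 fell, by 0.11 to 0.24. The tissue-restricted core genes PSMB11 and PSMA8 did not pass the filter on low counts, and PSMB11 had no read in any library.

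Genes that load peptides on class I molecules were higher in SLO ½, and most of them in SLO as well. Of 15 listed, 13 were tested, and 13 were called higher in SLO ½ (median 0.71) and 8 in SLO (median 0.38), with 0 lower. Over all tested genes, 26.7% were called higher in SLO ½ and 32.9% in SLO, and the interferon lists below are read beside the same shares. TAP1, which shares its start region with PSMB9, rose by 1.18 (SE 0.068) in SLO ½ and 0.97 (SE 0.070) in SLO on the log2 scale, where PSMB9 rose by 1.05 and 0.47. B2M, the light chain of class I molecules, rose by 0.97 in SLO ½ and 1.07 in SLO, and the heavy chain HLA-B by 1.35 and 1.46. Neither was called between the doses (edgeR adjusted p = 0.0511 for B2M and 0.124 for HLA-B). Of the 13 tested, 6 were called lower and 0 higher in SLO against SLO ½ (median -0.10), where 20.3% and 20.8% of all tested genes were. TAP1 was among the 6, with a log2 change of -0.21 (edgeR adjusted p = 0.00698). HLA genes have near-identical stretches whose reads are set aside when they match several places, so their levels are uncertain.

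**Figure D4:**
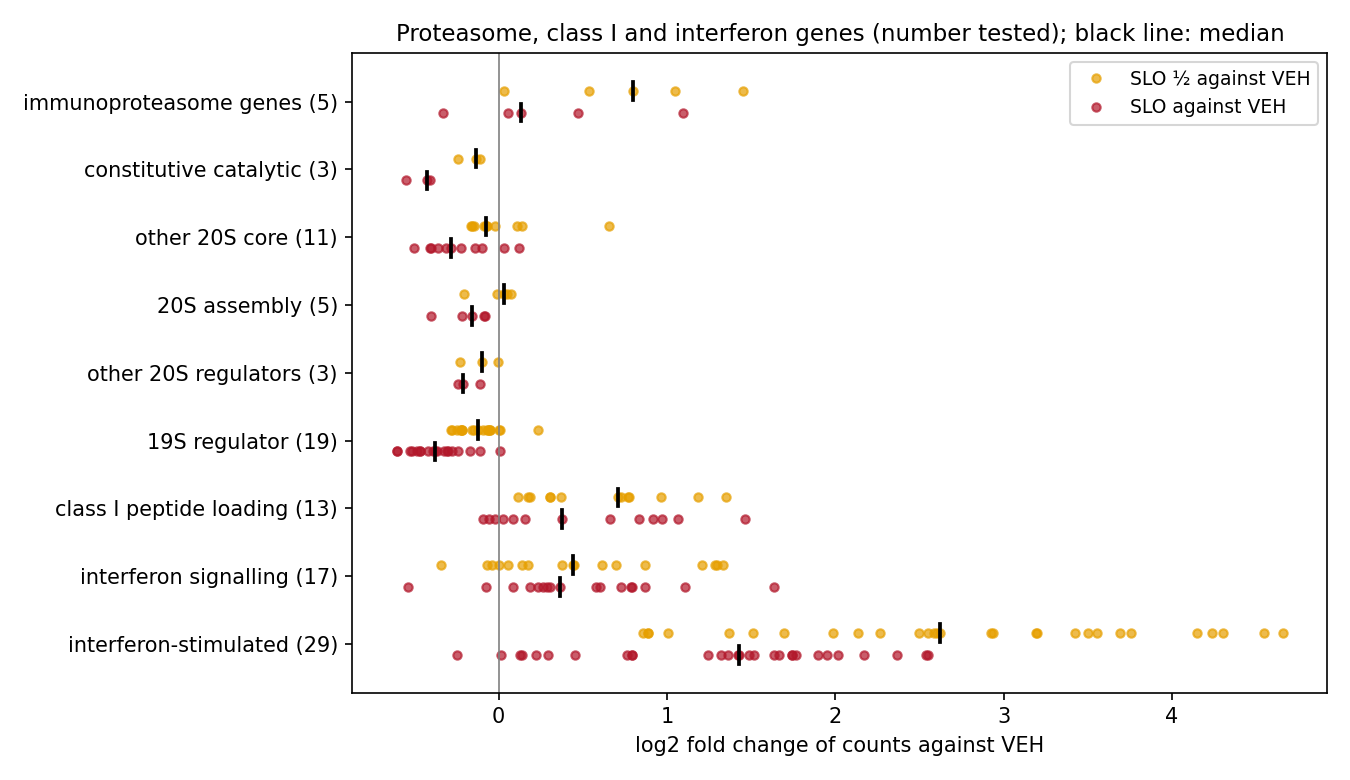
Log2 fold change of counts against VEH (horizontal axis) for each tested gene of 9 lists in SLO ½ (orange) and SLO (red), with the number tested in brackets and the median as a black line. The medians of the immunoproteasome genes are 0.80 and 0.14, those of the 19S regulator -0.12 and -0.38, and those of the interferon-stimulated genes 2.62 and 1.43.

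Of 17 genes that signal from the interferon receptors, 9 were called higher and 1 lower in SLO ½, and 13 higher and 1 lower in SLO (medians 0.44 and 0.37). IFNGR1, a chain of the interferon gamma receptor, stood at 28.9 ± 0.243 CPM in VEH, 44.3 ± 1.66 CPM with SLO ½ and 52.7 ± 2.40 CPM with SLO (SD, n = 3), an order of groups unlike that of PSMB9, which was highest with SLO ½. IRF1 and NLRC5, both known to act on immunoproteasome and class I genes, were picked after their values were seen and rose by 0.87 and 1.34 in SLO ½ and by 0.79 and 1.11 in SLO.

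Interferon-stimulated genes had larger median changes than the members. All 29 tested of 30 listed were called higher in SLO ½ (median 2.62), 23 were higher and 1 lower in SLO (median 1.43), and 27 fell from SLO ½ to SLO (median -1.47). Their summed level was 296 to 399 CPM in VEH libraries, and without overlap 1138 to 1312 CPM under SLO ½ and 512 to 621 CPM under SLO. The first VEH library held the highest of the VEH sums, and the median of the list in SLO was 1.70 without it. IFIT3, an antiviral effector, rose by 2.62 in SLO ½ and 1.74 in SLO, and GBP1, a guanylate-binding protein, rose by 2.13 and 2.02 and was not called between the doses (adjusted p = 0.0979).

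Transcripts of interferons themselves were at or near 0. IFNG had no read in any library, which allows up to 0.202 CPM in the shallowest one by counting error alone. IFNB1 had 0 reads in all VEH libraries, 1 to 6 under SLO ½ and 1 to 2 under SLO, and none of the 5 interferon genes listed passed the filter.

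Some genes resembled single members closely in their levels across the 9 libraries. Among 10938 genes compared, the nearest to PSMB8 were TRIM38 (Pearson r = 0.976), NAT9 and REC8, and the nearest to PSMB9 were DDX60 (0.982), HERC5 and MX1. TNIP1 (0.989), IFI35 and IGFBP6 lay nearest to PSME2, IGFBP5 (0.987), TCEAL8 and NIPAL4 to PSMB10, and EEF1A2 (0.992), MRPL10 and GALK1 to PSME1. Among the members, log2 CPM of PSMB8 and PSME2 (r = 0.942), PSMB8 and PSMB9 (0.913) and PSMB9 and PSME2 (0.904) varied together, whereas PSME1 and PSMB10 did not (-0.159). These values describe 9 points that fall in 3 groups, so they mostly reflect the order of the group means.

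Other genes lie close enough to the members to bear on their counts. PSMB10 shares 640 of its 1626 annotated exon bases (39.4%) with ENSG00000261884 on the same strand, a gene with 9 to 20 reads per library. Reads lying on 2 genes of a strand are set aside, so the level of PSMB10 is uncertain, and PSMB9 shares 174 exon bases (5.21%) in the same way with PSMB8-AS1 (8 to 18 reads). PSMB8 and PSMB9 share 139 exon bases on opposite strands, which stranded counting keeps apart. Pseudogenes of PSME2 held few reads, 16 to 26 for PSME2P1 and 28 to 64 for PSME2P2 against 1016 to 1862 for PSME2.

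Markers of microglia were sparse in these cells. P2RY12 and TYROBP had no read in any library, AIF1, TMEM119, CX3CR1, PTPRC and SPI1 had at most 2 reads, and 3 of the 12 markers listed could be tested. Of those 3, TREM2 and CSF1R rose from 2 to 6 reads in VEH, by 1.46 and 1.64 on the log2 scale in SLO ½ and by 1.38 and 1.78 in SLO. Of 15 markers of other cell types, 4 could be tested, with 1 called higher and 1 lower in SLO ½ and 2 higher and 1 lower in SLO. The shares over all tested genes were 26.7% higher and 25.3% lower in SLO ½, and 32.9% and 32.1% in SLO. Counts among 4 genes are too few to be set apart from these shares. The mesenchymal genes among them were abundant. COL1A1, a collagen chain, rose by 0.17 in SLO ½ and 0.48 in SLO, COL1A2 had a log2 difference of -0.09 in SLO ½ (edgeR adjusted p = 0.136) and rose by 0.25 in SLO, and PDGFRB fell by 0.51 and 0.28. The summed level of that list was 1229 to 1467 TPM in VEH libraries, 1419 to 1444 TPM with SLO ½ and 1767 to 1854 TPM with SLO. The astrocyte marker AQP4 had no read and the lymphocyte marker CD3E at most 1. Mitochondrial transcripts took 1.30% to 1.61% of reads in VEH. Their share was 2.30% to 2.86% under SLO ½ and 2.51% to 3.12% under SLO. The part of these shifts in the levels of the immunoproteasome genes was not tested.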

How the data were processed

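RNA of 9 HMC3 libraries (3 VEH, 3 SLO ½, 3 SLO) was analysed. The authors trimmed reads with Trimmomatic 0.38 and aligned them to GRCh38 with STAR 2.7.1a (versions from the submitters' processing notes), and STAR's gene counts took reads with a single alignment, by strand. The deposited counts are whole numbers without normalization, and the deposited TPM scale the same counts by 1 fixed length per gene, with each library summing to 1000000. The annotation release is not given in the sources used here, and member coordinates equal those of GENCODE v44. The 4 summary lines without a gene were left out: 0.883% to 0.984% of reads were unmapped, 7.16% to 8.52% aligned to several places, 5.54% to 8.38% met no gene and 3.03% to 3.26% met more than 1 gene.

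Counts were kept by filterByExpr, scaled by TMM and fitted with edgeR 4.0.16 (R 4.3.3), quasi-likelihood, 3 groups, all 9 libraries, Benjamini-Hochberg over 14727 genes. The procedure was tested on simulated counts. CPM are TMM-scaled. For correlations, 2 was added as a prior count and genes averaging at least 2 in log2 CPM were kept. Intervals are 95%. The 0.202 CPM limit is 3 counts in the shallowest library.

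The members and all gene lists were chosen with earlier results of these data known. Named genes were the 5 members, their 3 constitutive counterparts, in each list the 3 tested genes with the smallest p in either comparison with VEH (some of which are not reported here), and the 3 best correlated genes per member. Genes named beside these to identify a marker, interferon, neighbouring gene or background role, and IRF1 and NLRC5, lie outside that rule. Alternatives were DESeq2 1.42.0, its size factors in edgeR, scaling by library size only, other count filters, only the 2 groups compared, a replicate block, limma 3.58.1 on log2(TPM + 1) or log2(TPM + 0.1), each library left out and, chosen after seeing the data, PSME2 summed with its pseudogenes.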

Additional observations from a re-analysis of the deposited data

How the results depend on the processing

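The number of members called stayed the same under all alternatives in SLO ½ against VEH (4 higher, 0 lower) and SLO against SLO ½ (0 higher, 4 lower). In SLO against VEH it was 2 to 3 higher and 1 lower, the extra call being PSME2 with library size only (log2 fold change 0.13, adjusted p = 0.0351 by edgeR). The log2 difference of PSME1 between SLO ½ and VEH, never called, changed sign with limma on log2(TPM + 1) (-0.010) and log2(TPM + 0.1) (-0.010), and ranged from -0.00349 to 0.0596 as each library was left out. The PSMB10 to PSMB7 ratio between SLO and SLO ½ (log2 -0.06) ranged from -0.208 to 0.0686 as each library was left out, the latter without SLO replicate 1. The causes were not tested. PSMB9 in SLO against VEH kept an edgeR, DESeq2 or limma adjusted p between 0.00358 and 0.0481.

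Scaling moved the balance over all genes, with 4637 higher and 3049 lower in SLO ½ and 5624 and 3870 in SLO by library size only, and 3280 and 4131 in SLO ½ by limma on log2(TPM + 1). The median log2 change of the interferon-stimulated list in SLO ranged from 0.70 (limma on log2(TPM + 1), where the pseudocount shrinks low genes by construction) to 1.70. Samples with the same replicate number were not treated as paired in the main fit. Their deviations correlated at 0.0028 to 0.0873 (mean 0.025), and those with different numbers at -0.062 to 0.037 (mean -0.012). These weak values do not settle whether replicate numbers mark a shared culture or day. With the replicate block 3987 and 3762 genes were called in SLO ½, with PSMB8 at 0.80 and no member's call changed. Low counts limit PSMB10, whose 13 to 19 reads in VEH leave a standard error of 0.226.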
